A study of Mus musculus with 18 samples.

Results

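The 9 genes described here are Sall1, Sall2, Sall3, Sall4, Prtg, Vrtn, Cbln1, Fam123c and L1cam, grouped as embryonic genes shut off after day 5 (D5) of cardiac differentiation. They were taken by symbol from a table of 23337 gene symbols, and all 9 were among the 13116 genes that passed the filter on low counts. The genes were selected on their falling counts from D5 to D15 in these same 18 libraries, so their values are given as a description without a test. The description holds for 8 of them. Sall2 kept 79.0% of its D5 level on day 15 (D15) and stood above its D5 level on every day between.

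The libraries are poly(A) RNA-seq of cells that were differentiated from mouse embryonic stem cells (mESC) toward cardiomyocytes, in a study of Hedgehog signaling and differentiation timing. All come from 1 untreated cell line, named TBX5-FTA, on the A2Lox.cre background, so they stand for that line alone. The labels call the cells cardiac progenitor cells on D5, D6 and D7 and immature cardiomyocytes on D8, D10 and D15, with 3 libraries per day and 18 in all. Whether they were grown apart is not stated in the labels, and SDs, SEs and p-values therefore cover library-to-library variation that may be technical only. Library totals lay between 5257601 and 7122093 counts, every library was closest to a library of its own day, and the biological coefficient of variation across genes was 8.27%.

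SALL proteins are zinc finger transcription factors that recruit the NuRD chromatin remodelling and deacetylase complex to repress genes. SALL4 is a factor of embryonic stem cells and early embryos, SALL1 and SALL3 act in organ and limb formation, and SALL2 is the most divergent member of the family. Protogenin (Prtg) and L1CAM are immunoglobulin-superfamily proteins of the cell surface, and cerebellin 1 (Cbln1) is a secreted protein known as a synapse organiser of the cerebellum. Vertnin (Vrtn) is a nuclear protein named for its link to vertebra number in pigs. Fam123c is the older symbol of Amer3, a member of a family of membrane adaptors that bind the adenomatous polyposis coli protein (APC) of the Wnt pathway.

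Levels are given in CPM, which scales counts to a common library size, with library sizes adjusted by the trimmed mean of M values (TMM). A longer transcript collects more reads, so levels of different genes are compared per kilobase of merged exon. On D5, Prtg was the most abundant of the 9 at 159 ± 3.1 CPM per kb (SD, n = 3). Sall4 followed at 25.1 ± 0.12 and Sall1 at 17.3 ± 2.4 CPM per kb. Sall2 stood at 11.3 ± 0.59, Cbln1 at 10.1 ± 1.5 and Vrtn at 8.18 ± 1.1 CPM per kb, and the spread of Cbln1 reached those of both its neighbours. L1cam at 3.42 ± 0.22 and Fam123c at 3.41 ± 0.63 CPM per kb did not differ beyond their spread, and Sall3 was lowest at 1.62 ± 0.14 CPM per kb. In bulk RNA, fewer cells of a type and less RNA per cell cannot be told apart, which holds for every level below.

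**Figure D1:**
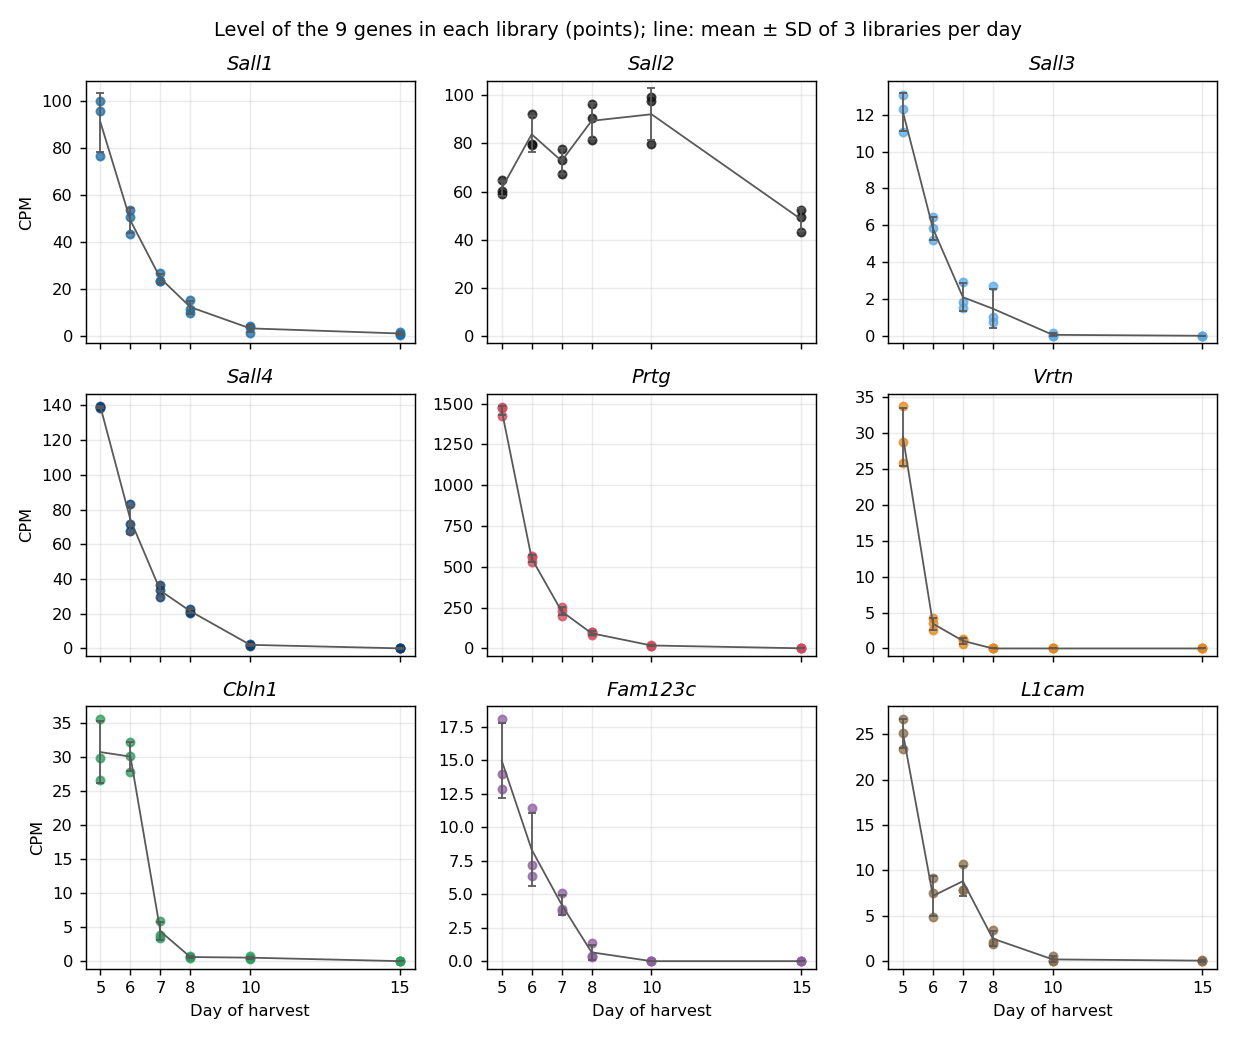
Level of each of the 9 genes in CPM (y axis, from 0, a separate scale for each gene) against day of harvest (x axis). Points are the 3 libraries of a day, and the line joins the daily means with bars of 1 SD. Sall2 is the one gene with all libraries above its D5 libraries on D6, D7, D8 and D10, and the D6 libraries of Cbln1 lie among its D5 libraries.

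Sall4 (chr2:168748332-168767943, minus strand, GRCm38) had 138, 139 and 139.6 CPM in the 3 D5 libraries, 67.4, 72.0 and 83.0 CPM on D6 and 29.5, 33.9 and 36.5 CPM on D7. On D8 it had 20.6, 21.1 and 22.8 CPM and on D10 1.55, 1.996 and 2.71 CPM. On D15 a single count remained over 3 libraries, against 2972 counts on D5, a 2443-fold lower level with a 95% counting interval of 438.1 to 96520. The 3 libraries of each harvest lay wholly below those of the harvest before, D15 included. Among the fitted steps the steepest per day came late, with a log2 fold change of -1.68 per day for D10 against D8. Over the 2 days of that step the log2 fold change was -3.37 ± 0.19 (SE). The steps of 1 day before it had -1.15 ± 0.10 for D7 against D6 and -0.63 ± 0.12 for D8 against D7.

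Sall1 (chr8:89027235-89044162, minus strand) had 76.6, 95.9 and 99.97 CPM on D5, 43.3, 50.4 and 53.5 CPM on D6 and 23.3, 23.5 and 26.7 CPM on D7. It then had 9.88, 11.5 and 15.3 CPM on D8, 1.35, 3.80 and 4.30 CPM on D10 and 0.532, 0.8001 and 1.59 CPM on D15. Sall1 came close to halving each day over the first 3 steps, with log2 fold changes of -0.89 ± 0.15, -1.003 ± 0.16 and -1.01 ± 0.19. The D15 and D10 libraries overlapped. D15 against D5 the log2 fold change was -6.52 ± 0.26, and Sall1 was, with Prtg, the only one of the 8 lost genes with counts in all 3 D15 libraries.

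Sall3 (chr18:80966376-80986771, minus strand) was low throughout, with 76, 88 and 96 counts in the D5 libraries, 34, 37 and 42 on D6 and 10, 12 and 19 on D7. It had 5, 6 and 15 counts on D8, a single count on D10 and none on D15. The D8 libraries overlapped those of D7, and the log2 fold change of that step, -0.55 ± 0.45, became -1.27 without the D8 library that held 15 counts. The 0 counts of D15 allow a level of up to 1.41% of D5, which makes Sall3 at least 71.2-fold lower on D15 with 3 counts over the group as the floor.

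Sall2 (chr14:52311172-52328762, minus strand) had 58.8, 60.2 and 64.9 CPM on D5, 79.4, 79.6 and 92.4 CPM on D6 and 67.1, 73.1 and 77.9 CPM on D7. On D8 it had 81.3, 90.4 and 96.4 CPM, on D10 79.7, 97.6 and 99.2 CPM and on D15 43.2, 49.6 and 52.4 CPM. All libraries from D6 to D10 stood above all D5 libraries, and all D15 libraries stood below them. The log2 fold change was 0.45 ± 0.09 for D6 against D5, 0.04 ± 0.09 for D10 against D8 and -0.92 ± 0.10 for D15 against D10. D15 against D5 it was -0.34 ± 0.10, a difference of a size unlike that of the other 8 genes.

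The promoter of the SALL gene that was kept and those of 2 genes that were lost are shown to set their CG content side by side. Each is a window of 300 bases over a gene start in RefSeq on GRCm38.p6, with every CG dinucleotide in capitals. They are the first listed start of Sall2 (chr14:52328621-52328920, minus strand), the first of Sall1 (chr8:89044113-89044412, minus strand) and the start of Prtg (chr9:72807024-72807323, plus strand).
Sall2: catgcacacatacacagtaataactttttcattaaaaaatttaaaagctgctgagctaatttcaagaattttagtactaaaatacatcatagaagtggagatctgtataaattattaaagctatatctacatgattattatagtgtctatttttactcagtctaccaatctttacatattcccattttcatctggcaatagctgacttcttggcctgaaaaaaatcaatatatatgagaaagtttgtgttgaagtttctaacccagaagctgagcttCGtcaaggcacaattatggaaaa
Sall1: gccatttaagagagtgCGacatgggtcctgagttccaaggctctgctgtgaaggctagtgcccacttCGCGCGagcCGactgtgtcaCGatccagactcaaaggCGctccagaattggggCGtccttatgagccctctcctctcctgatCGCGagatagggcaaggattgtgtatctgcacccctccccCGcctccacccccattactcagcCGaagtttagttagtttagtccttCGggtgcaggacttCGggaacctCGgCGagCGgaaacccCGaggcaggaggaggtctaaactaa
Prtg: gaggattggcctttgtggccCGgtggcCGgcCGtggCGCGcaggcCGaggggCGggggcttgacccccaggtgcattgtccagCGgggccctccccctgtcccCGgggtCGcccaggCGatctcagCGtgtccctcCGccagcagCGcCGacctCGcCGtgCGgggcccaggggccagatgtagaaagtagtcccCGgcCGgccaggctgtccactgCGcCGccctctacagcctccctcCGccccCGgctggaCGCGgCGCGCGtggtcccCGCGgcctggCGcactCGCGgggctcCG
The Sall2 window holds 1 CG and the letters TATAAA, which 13.6% of 32851 mouse promoter windows hold on either strand. The Sall1 window holds 18 CG and the Prtg window 35, where the median window holds 7, and 93.0% of windows hold fewer than Prtg. The second listed Sall2 start has 10 CG, so the low value belongs to the first start only. The windows of Fam123c (34 CG), L1cam (22 and 25), Vrtn (7, 11 and 10) and the other 2 Sall1 starts (27 and 39) hold between 7 and 39. Sall3, Sall4 and Cbln1 are named only. Methylation and factor binding were not measured in these libraries.

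Prtg (chr9:72806874-72917291, plus strand), a receptor of the DCC family found on early embryonic cells, had 1426, 1473 and 1477 CPM on D5, 528, 559 and 567 CPM on D6 and 200.4, 231 and 251 CPM on D7. It had 79.9, 98.1 and 101 CPM on D8, 16.8, 18.1 and 19.7 CPM on D10 and 0.709, 1.06 and 1.28 CPM on D15. No library of any day overlapped with those of the day before. The decline was even over the first 3 steps, with log2 fold changes of -1.40 ± 0.07, -1.28 ± 0.08 and -1.29 ± 0.08. D15 against D5 the log2 fold change was -10.45 ± 0.15, a 1396-fold lower level, resting on 18 counts on D15 and 31152 on D5.

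L1cam (chrX:73853778-73896105, minus strand), an adhesion molecule known from growing axons, had 23.4, 25.2 and 26.7 CPM on D5, 4.89, 7.50 and 9.19 CPM on D6 and 7.87, 7.89 and 10.7 CPM on D7. It had 1.89, 2.16 and 3.41 CPM on D8, 3 counts in 1 library on D10 and 1 count on D15. The D7 and D6 libraries overlapped, at a log2 fold change of 0.29 ± 0.26, between lower steps of -1.80 ± 0.24 for D6 against D5 and -1.84 ± 0.31 for D8 against D7. The 1 count of D15 against 537 counts of D5 gives a 441.4-fold lower level, with a counting interval of 78.9 to 17470. L1cam exons overlap those of Arhgap4, which had 0.761 ± 0.55 CPM on D15 and 2.91 ± 0.90 CPM on D5, and the use of strand in counting is not given in the sources used here.

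Vrtn (chr12:84641019-84651455, plus strand) was lost first. It had 25.9, 28.8 and 33.8 CPM on D5, 2.60, 3.49 and 4.29 CPM on D6 and 0.620, 1.23 and 1.34 CPM on D7, and no count in any library of D8, D10 or D15. D6 against D5 its log2 fold change was -3.09 ± 0.25, an 8.49-fold lower level after 1 day. With 0 counts on D15 and 631 on D5, Vrtn was at least 173-fold lower on D15.

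Cbln1 (chr8:87468405-87472609, minus strand) was the one lost gene whose libraries overlapped between the first harvests. It had 26.6, 29.9 and 35.7 CPM on D5, 27.8, 30.2 and 32.2 CPM on D6, 3.39, 3.87 and 5.89 CPM on D7 and 0.436, 0.664 and 0.718 CPM on D8. D6 against D5 its log2 fold change was -0.03 ± 0.16. The next steps were steep, at -2.77 ± 0.20 for D7 against D6 and -2.84 ± 0.37 for D8 against D7. Cbln1 held 9 counts on D10, overlapping the 11 of D8, and none on D15, at least 179-fold lower than the 654 counts of D5.

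Fam123c (Amer3, chr1:34579657-34590944, plus strand) had 12.9, 14.0 and 18.1 CPM on D5, 6.34, 7.199 and 11.5 CPM on D6 and 3.72, 3.87 and 5.09 CPM on D7. On D8 it had 2, 2 and 8 counts, and there was no count on D10 or D15. Each day's libraries lay below those of the day before as long as there were counts. The log2 fold change of D8 against D7, -2.66 ± 0.47, became -3.64 without the D8 library that held 8 counts. D15 against D5, 0 counts against 321 make Fam123c at least 88.0-fold lower.

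Sall4 exons overlap those of Gm14261, and 92.4% of the 50-base windows of Sall4 exons occur once in the annotated transcripts. Fam123c exons overlap those of 1700101I19Rik. The share of unique windows was 98.8% for L1cam and at least 99.9% for the other 7 genes.

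Order of loss was read from the mean CPM of each day as a share of the D5 mean. On D6 the share was 11.7% for Vrtn, 28.7% for L1cam, 37.8% for Prtg, 48.0% for Sall3, 53.3% for Sall4, 54.0% for Sall1, 55.6% for Fam123c and 97.9% for Cbln1. By D6, 4 of the 9 genes stood below 50% of D5, against 5.35% of all genes tested, and by D7 8 of 9 did, against 8.91%. By D8 the shares of D5 were 0 for Vrtn, 1.97% for Cbln1, 4.398% for Fam123c, 6.38% for Prtg, 9.90% for L1cam, 12.1% for Sall3, 13.4% for Sall1 and 15.4% for Sall4. On D15, 8 of 9 lay below 10%, against 1.93% of all genes tested. Because the genes were chosen for these falls, nothing is read from their counts against those shares.

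**Figure D2:**
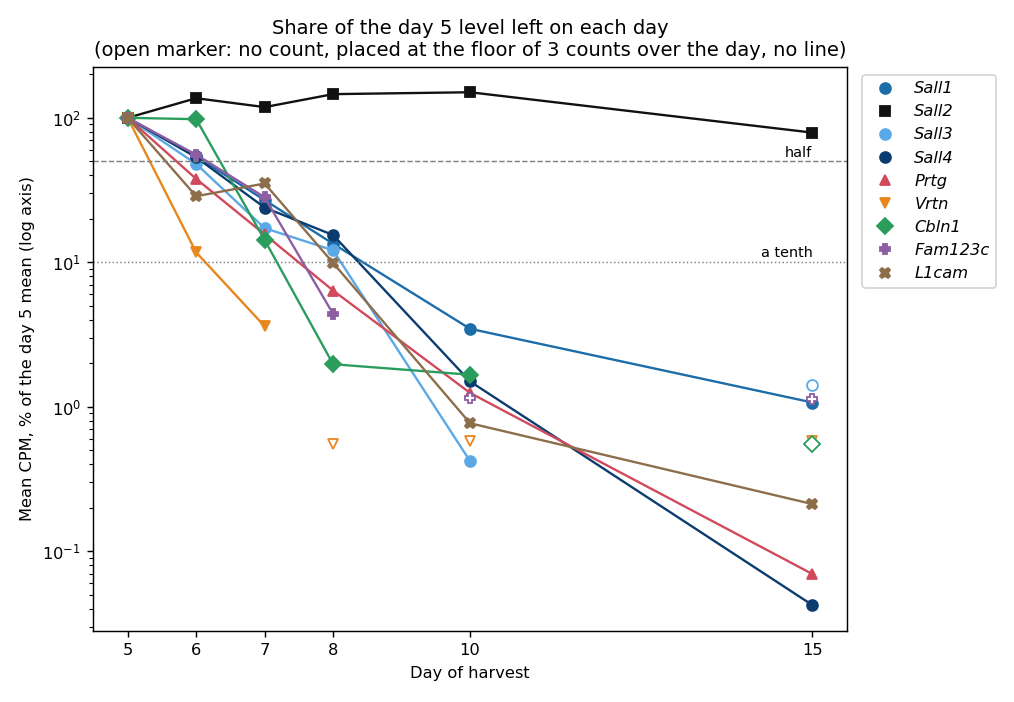
Mean CPM of each gene as a percentage of its D5 mean (y axis, log scale) against day of harvest (x axis), with lines at 50% and 10%. Open markers stand at the floor of 3 counts over the day for genes with no count. Vrtn is lowest on D6 and D7, Cbln1 stands at 1.97% on D8, against 97.9% on D6, and Sall2 stays between 79.0% and 150.3%.

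Interpolation between harvests, linear in log2 mean CPM, placed the crossing of 50% of the D5 level at day 5.32 for Vrtn, 5.555 for L1cam, 5.71 for Prtg, 5.94 for Sall3, 6.08 for Sall4, 6.11 for Sall1, 6.16 for Fam123c and 6.35 for Cbln1. With each library left out in turn, Vrtn stayed between 5.31 and 5.34, L1cam between 5.496 and 5.63 and Prtg between 5.70 and 5.73, so these 3 kept their order. Sall3 (5.88 to 6.01), Sall4 (6.002 to 6.13), Sall1 (6.003 to 6.19) and Fam123c (5.87 to 6.32) overlapped, and their order is not resolved. Cbln1 lay between 6.32 and 6.39, next to the upper end of Fam123c.

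The crossing of 10% followed another order. Vrtn reached it at day 6.13, Cbln1 at 7.18, Prtg at 7.50, Fam123c at 7.56, L1cam at 7.99, Sall3 at 8.11, Sall4 at 8.37 and Sall1 at 8.44. With libraries left out in turn, Sall4 (8.35 to 8.39) and Sall1 (8.27 to 8.54) stayed after the other 6 lost genes, and their order with each other is not resolved. Sall3 ranged from 7.61 without the D8 library of 15 counts to 8.24, over 17 of 18 cases with a value. Its place against L1cam (7.85 to 8.08) and Fam123c (7.40 to 7.64) cannot be told, while in these 17 cases it stayed after Prtg (7.47 to 7.54). Prtg and Fam123c overlapped as well. From 50% to 10% took 0.812 days for Vrtn and 0.831 days for Cbln1, but 2.17 days for Sall3, 2.29 days for Sall4, 2.33 days for Sall1 and 2.44 days for L1cam. Cbln1, among the last to cross 50%, was second to cross 10%, at 7.09 to 7.22 with libraries left out. The harvest at which a gene first lay below a line depended on 1 library in 3 genes. L1cam lay below 10% first on D10 in place of D8 when 1 D5 library or either of 2 D8 libraries was left out, Sall3 lay below 10% on D8 without the D8 library of 15 counts and below 50% first on D7 without 1 D6 library, and Fam123c lay below 50% on D6 without the D6 library of 75 counts.

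**Figure D3:**
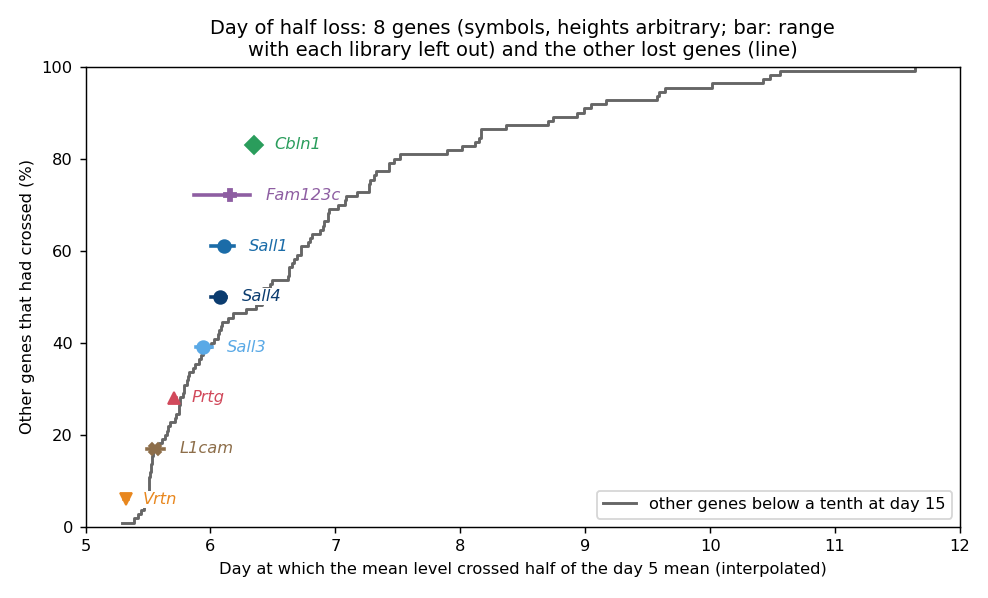
Interpolated day at which a gene crossed 50% of its D5 mean (x axis). Symbols are the 8 lost genes at arbitrary heights with the range over libraries left out in turn, and the line gives the percentage of 110 other lost genes that had crossed (y axis). The 8 genes lie between 5.32 and 6.35, and the median of the other genes is 6.42.

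A wider set of lost genes gives the scale of these times. Of 9171 other genes with a D5 mean of at least 10 CPM, 110 (1.20%) were below 10% of that mean on D15. Their median crossing of 50% was at day 6.42, with quartiles of 5.75 and 7.28, and their median crossing of 10% at day 10.65. By D6, 39.1% of them had crossed 50%, and by D7 69.1% had. By D10, 39.1% of the 110 were below 10%. These values are a scale only, since both sets of genes were chosen on loss in the same libraries.

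Step by step, the groups of 3 libraries separated as follows. D6 against D5, 7 of the 9 genes had all later libraries below all earlier ones, against 23.6% of all genes tested, and 1 (Sall2) had all above, against 25.2%. D7 against D6, 8 genes were wholly lower, Sall2 among them, against a background of 21.8%. D8 against D7, 7 were wholly lower against 18.5%, and Sall2 was wholly higher against 18.8%. D10 against D8, 6 were wholly lower against 20.6%, and D15 against D10, 4 were, against 27.4%. Over the whole span, D15 against D5, all 9 were wholly lower, Sall2 included, against 38.8% of all genes. The choice of the genes fixed most of these counts. The median log2 fold change over all genes tested was at most 0.03 in size in each of these 6 comparisons.

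**Figure D4:**
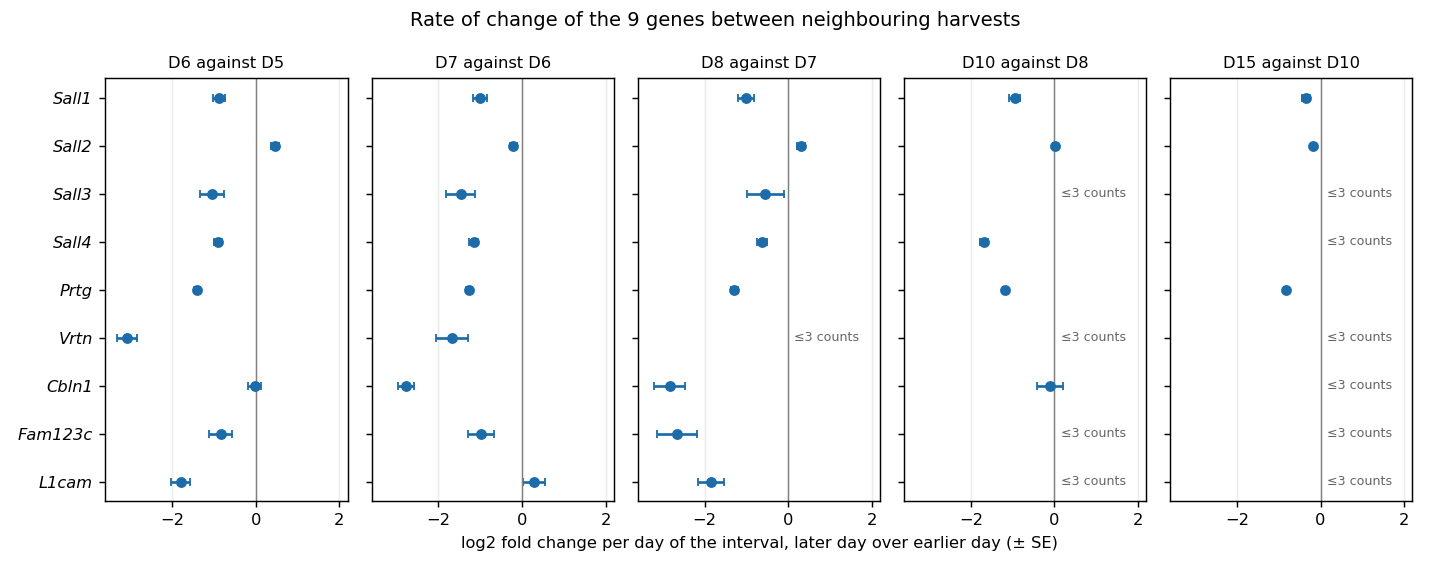
Log2 fold change per day of the interval (x axis, later over earlier day, bars of 1 SE) for the 9 genes in each of the 5 steps between neighbouring harvests. Grey text marks steps in which a day had 3 counts or fewer and no fold change is given. The early drop of Vrtn, the delayed drop of Cbln1 and the late drop of Sall4 (D10 against D8) differ from the first 3 steps of Sall1 and Prtg, which lie close together within each gene.

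Pearson's r of log2 CPM over the 18 libraries lay between 0.767 and 0.988 for the 28 pairs of lost genes and between -0.176 and 0.343 for the 8 pairs with Sall2. The libraries share days and the genes were chosen for falling, so high values among the lost genes follow from the choice. Sall2 was set apart by its levels on these same days, so its low values add nothing to that.

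The genes of the whole table most like each one were sought among 10243 genes by the same r. For both Sall4 (r = 0.995) and Prtg (r = 0.996) the closest was Lin28a, an RNA-binding protein of early embryonic cells that blocks maturation of let-7 microRNAs. Lin28a had 1021, 526.4, 195, 70.05, 7.53 and 0.284 CPM on D5, D6, D7, D8, D10 and D15. Trim71, a let-7 target first known from the worm as lin-41, was among the closest to Sall4 (r = 0.994) and had 125 CPM on D5, 48.8 on D7 and 0.289 on D15. Ngfrap1 (r = 0.995) was next to Sall4, and Krt18 (r = 0.994) and Gart (r = 0.993) were next to Prtg. For Cbln1 the closest was the homeobox gene Hoxb1 (r = 0.987), which had 114, 101, 25.5, 4.085, 4.81 and 2.02 CPM over the 6 days and so shared the hold on D6 and the drop on D7. Mum1 and Hat1 followed for Cbln1 at 0.987 and 0.985.

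For Sall1 the 3 closest genes were Mllt4 (r = 0.986), Foxh1 (r = 0.983) and Cct8 (r = 0.981). Mllt4 kept 39.6% and Cct8 51.9% of the D5 level on D15, against 1.07% for Sall1, since r does not weigh the size of a fall. Foxh1, a partner of SMAD proteins in Nodal signaling, had 197 CPM on D5, 20.5 on D7 and 0.724 on D10. Vrtn was most like Polg (r = 0.986), the mitochondrial DNA polymerase, followed by Nolc1 and Fkbp3, and Polg had 546 CPM on D5, 173 on D6 and 68.0 on D15. Polg kept 12.5% of its D5 level on D15, where Vrtn had no count. Sall3 was most like Gatad2a, Cirh1a and Stard8 (r = 0.984, 0.977 and 0.977), Fam123c like Trip13, Smc2 and Mir17hg (0.984, 0.983 and 0.982), and L1cam like Lbr, Eaf1 and Hars (0.985, 0.978 and 0.978). Other like genes that kept much of their level were Hars at 69.6%, Fkbp3 at 66.1% and Hat1 at 48.9% of D5 on D15. Sall2 was most like the receptor gene Ephb3 (r = 0.966), which had 31.3 CPM on D5, 50.9 on D6, 53.2 on D8 and 25.5 on D15, then Nell1 (0.958) and Pik3r3 (0.931). Only 76.8% of the 50-base windows of Pik3r3 are unique, and exons of Lin28a, Trim71, Gart, Cct8, Mllt4, Polg, Fkbp3, Mir17hg, Lbr, Eaf1, Hars and Pik3r3 overlap another annotated gene, so their counts are less certain.

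The let-7 microRNAs are known to act on transcripts through pairing of their seed, bases 2 to 8, with sites in 3′ untranslated regions (UTRs). Because Lin28a was closest to 2 of the 9 genes, their 3′ UTRs were searched on the sense strand for CTACCTC, the complement of that seed. The mature sequence of 1 family member from RefSeq (chr13:48538239-48538260, minus strand, GRCm38.p6) is shown with the seed in capitals, followed by 20 bases around matches in GENCODE M21 transcripts with the match in capitals. They lie at chr2:168748940-168748959 (minus strand) for Sall4, chr9:72912561-72912580 and chr9:72913991-72914010 (plus strand) for Prtg and chr1:34590108-34590127 (plus strand) for Fam123c.
mmu-let-7a-5p: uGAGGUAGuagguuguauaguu
Sall4 site: gctttaatttatCTACCTCa
Prtg first site: tctgctgaatagCTACCTCa
Prtg second site: ctcctgtttataCTACCTCc
Fam123c site: aaggatttgattCTACCTCa
The seed is shared by 8 mature let-7 5p forms. A match was found in 4 of the 9 genes (Prtg with 2, and Sall4, Sall3 and Fam123c with 1 each) and in 1711 of 20928 protein-coding genes with a 3′ UTR (8.18%). Among all UTRs of similar length, 25.2% held a match at the length of Prtg, 16.3% at that of Sall3, 12% at that of Fam123c and 11% at that of Sall4. The letters were not found in the annotated 3′ UTRs of the other 5 genes. At their lengths the shares were 12.3% for Cbln1, 9.86% for Sall2, 7.85% for L1cam, 7.75% for Sall1 and 5.35% for Vrtn. A match is a description of sequence. MicroRNA levels were not measured here. Lin28b, the paralog of Lin28a, had 138, 106, 78.7, 49.25, 19.2 and 1.53 CPM over the 6 days.

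Genes related to the 9 by complex, family or pathway, none of them among the 9, were tested with the edgeR quasi-likelihood test across all genes, with Benjamini-Hochberg adjustment. D15 against D5, 58 of the 94 listed symbols passed the filter. Of these 58, 21 were higher, 30 lower and 7 not past an adjusted p of 0.05. The 94 symbols include Amer1 and Amer2, which had no counts under these names and stood beside their older symbols Fam123b and Fam123a. Of all genes tested, 40.3% were higher and 37.7% lower. The median log2 fold change of the 58 was -0.30, against 0.03 over all genes tested. At the single steps, 15 of the 58 were higher and 11 lower for D6 against D5 (18.2% and 16.4% of all genes), 8 higher and 14 lower for D7 against D6 (15.1% and 15.3%) and 8 higher and 9 lower for D8 against D7 (12.6% and 11.6%). For D10 against D8, 12 were higher and 13 lower (17.3% and 13.9%), and for D15 against D10, 13 were higher and 23 lower (26.4% and 24.4%). Pou5f1, Nfasc and Chl1 each passed the filter through 1 day alone (D5, D15 and D10). The filter fixed their direction in comparisons with that day, so there they add nothing to the counts. The count of 8 higher became 5 without 1 D7 library for D7 against D6 and 5 without 1 D8 library for D8 against D7.

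**Figure D5:**
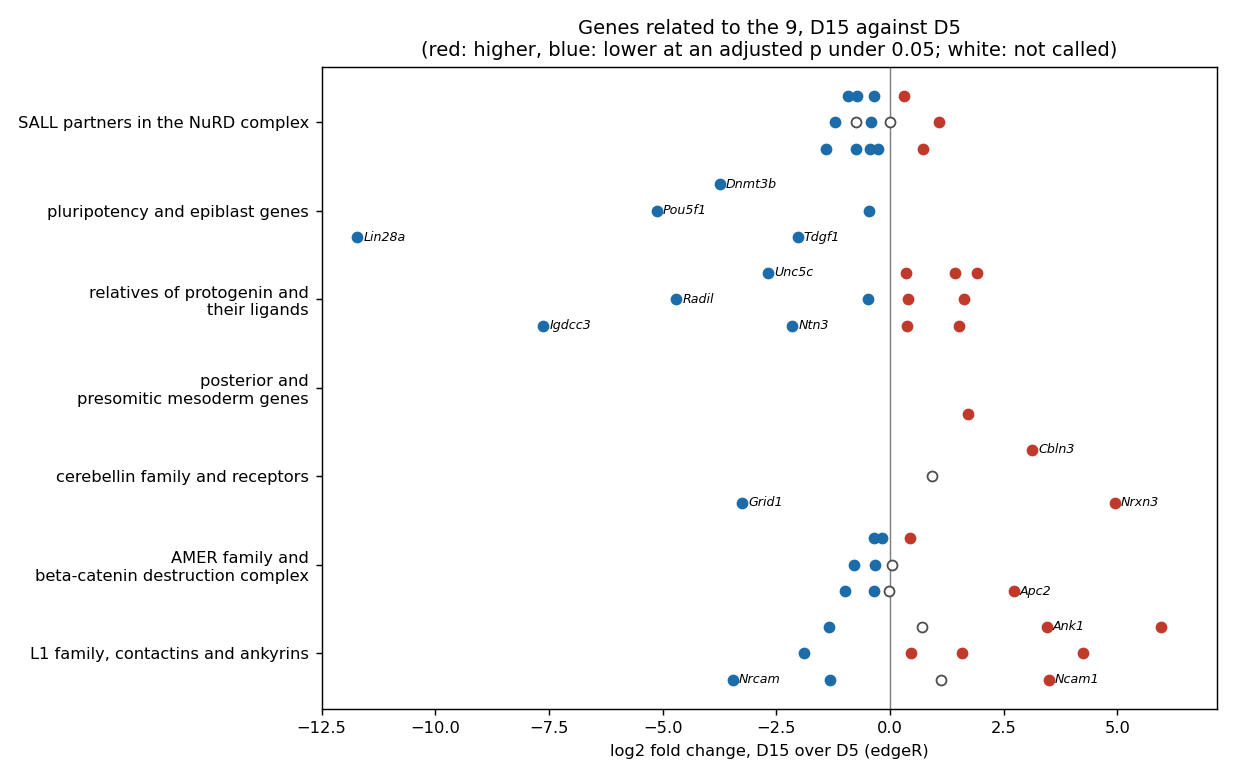
Log2 fold change D15 over D5 (x axis) for the 58 tested genes in 7 related lists (rows), red where higher and blue where lower at an adjusted p under 0.05, white where not called. All 5 tested pluripotency and epiblast genes lie left of 0, among them Pou5f1, which passed the filter through its D5 counts alone. The lists of protogenin relatives and L1 relatives hold genes on both sides. Fitted values of Pou5f1, Nrxn3, Nrcam and Chl1 rest on 1 or 2 counts on a day, and those of Nfasc and Cntn2 on 3. Nfasc passed the filter through its D15 counts alone.

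Of 14 subunits of NuRD, the partner complex of SALL proteins, 9 were lower on D15, against 37.7% of all genes tested. Another 3 were higher, against 40.3%, and 2 were not called. The median log2 fold change of the 14 was -0.43. Gatad2a, the subunit whose profile was closest to Sall3, had 94.4 ± 3.8 CPM on D15 and 252 ± 9.0 CPM on D5 (log2 fold change -1.42 ± 0.07, edgeR adjusted p = 1.16e-17). Mta1 was lower by -1.20 ± 0.08 (edgeR adjusted p = 1.12e-13) and Mbd3, a subunit known from embryonic stem cells, by -0.73 ± 0.08 (edgeR adjusted p = 8.57e-10). Its paralog Mbd2 was higher, with 80.2 ± 4.3 CPM on D15 and 38.0 ± 2.1 CPM on D5 (1.08 ± 0.09, edgeR adjusted p = 6.65e-12). The remodelling subunit Chd3 was also higher (0.73 ± 0.08, edgeR adjusted p = 2.04e-09). Gatad2b was higher by 0.31 ± 0.12 (edgeR adjusted p = 0.0203), and its adjusted p was 0.0628 without 1 D5 library and 0.0568 without 1 D15 library.

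Pluripotency and epiblast genes, the company of Sall4 in early embryos, were mostly too low to test. Of 14, 5 passed the filter, and all 5 were lower on D15, against 37.7% of all genes tested. Pou5f1 passed through its D5 counts alone, so the filter fixed its direction and it adds nothing to that count. Klf4 was lower by -0.46 ± 0.17 (edgeR adjusted p = 0.0174) but higher for D15 against D10 (2.08 ± 0.22, edgeR adjusted p = 4.99e-09). Lin28a had a log2 fold change of -11.71 ± 0.16 (edgeR adjusted p = 3.4e-30). Dnmt3b, a de novo DNA methyltransferase, had 7.70 ± 1.7 CPM on D15 and 104 ± 3.7 CPM on D5 (-3.75 ± 0.14, edgeR adjusted p = 8.45e-20). Pou5f1, the core pluripotency factor, held 1 count on D15 and 57 on D5, a ratio of 46.85 with a counting interval of 8.08 to 1883. Tdgf1, a Nodal co-receptor, was lower by -2.03 ± 0.61 (edgeR adjusted p = 0.00309). The 9 untested genes had between 1 (Prdm14) and 77 (Sox2) counts over all 18 libraries.

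Relatives of protogenin and their ligands went both ways, with 7 of 12 higher and 5 lower on D15. The shares over all genes tested were 40.3% higher and 37.7% lower. Neo1, the DCC-family receptor neogenin, had 509 ± 32 CPM on D15 and 190.3 ± 8.3 CPM on D5 (1.42 ± 0.06, edgeR adjusted p = 2.5e-18). Igdcc3, a close relative of Prtg, had 116, 188, 117, 112, 17.1 and 0.562 CPM over the 6 days, so it kept its level to D8, when Prtg was at 6.38% of D5. D15 against D5 Igdcc3 was lower by -7.62 ± 0.25 (edgeR adjusted p = 2.13e-17). Igdcc4 had 51.4 CPM on D5, 196 on D8 and 65.8 on D15. Radil (-4.70 ± 0.28), a RAP1 effector, Ntn3 (-2.15 ± 0.18), a netrin, Unc5c (-2.68 ± 0.15), a netrin receptor, and Dnajb11 (-0.48 ± 0.07), a chaperone, were lower at edgeR adjusted p-values of 3.53e-14, 6.44e-12, 2.66e-11 and 9.09e-07. Ntn3 first rose, with 16 CPM on D5, 48.8 on D7 and 3.61 on D15. Unc5c had 200.4 CPM on D5, 32.5 on D7, 125.7 on D10 and 31.4 on D15.

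The L1 family, contactins and ankyrins, relatives and partners of L1cam, had 6 of 12 higher, 4 lower and 2 not called. Nfasc passed the filter through its D15 counts alone, so the filter fixed its direction and it adds nothing to that count. Over all genes tested, 40.3% were higher and 37.7% lower. Ncam1, a neural and muscle adhesion molecule, had 337 ± 21 CPM on D15 and 29.9 ± 1.4 CPM on D5 (3.49 ± 0.12, edgeR adjusted p = 1.73e-16). Ank1 was higher by 3.44 ± 0.32 (edgeR adjusted p = 6.24e-11) and Ank2 lower by -1.89 ± 0.15 (edgeR adjusted p = 1.23e-11), both adaptors that tie membrane proteins to spectrin. Nrp1, a semaphorin co-receptor that binds L1CAM, was lower by -1.33 ± 0.09 (edgeR adjusted p = 8.57e-13), after a rise from 1263 CPM on D5 to 2105 CPM on D7. Cntn4 was lower by -1.33 ± 0.30 (edgeR adjusted p = 0.000222), but had 14.5 CPM on D10 against 6.79 CPM on D5. The L1 paralogs held few counts on D5. Nrcam held 2 counts on D15 and 31 on D5, a ratio of 12.7 with a counting interval of 3.24 to 109.9. Nfasc held 175 counts on D15 and 3 on D5, a ratio of 71.0 with an interval of 23.9 to 347.5. Chl1 held 4 on D15 and 2 on D5 and was not called between these days. It held 58 counts on D10 and 4 on D8. Chl1 passed the filter through its D10 counts alone, so the filter fixed the direction of that step.

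The AMER family and the beta-catenin destruction complex had 2 of 10 higher, 6 lower and 2 not called. Over all genes tested, 40.3% were higher and 37.7% lower. The scaffold gene Axin1 was lower by -0.80 ± 0.07 (edgeR adjusted p = 3.09e-11). Axin2, a Wnt target as well as a scaffold, had 39.3 CPM on D5, 25.7 on D6, 17.1 on D7, 9.98 on D8, 7.53 on D10 and 19.9 on D15, and was lower D15 against D5 by -0.99 ± 0.16 (edgeR adjusted p = 2.31e-06). The kinase gene Csnk1a1 was higher by 0.43 ± 0.06 (edgeR adjusted p = 5.03e-08). Apc2 was higher by 2.725 ± 0.43 (edgeR adjusted p = 1.14e-06), though this symbol is also an older one of Anapc2. Fam123a, the Amer2 gene under its older symbol, had 11 counts on D15 and 16 on D5 and was not tested.

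Of 8 cerebellin relatives and receptors, 4 were tested, with 2 higher, 1 lower and 1 not called on D15. Over all genes tested, 40.3% were higher and 37.7% lower. Cbln3 had 7.95 ± 3.3 CPM on D15 and 0.881 ± 0.40 CPM on D5 (3.13 ± 0.42, edgeR adjusted p = 7.92e-08). The receptor gene Grid1 was lower (-3.25 ± 0.47, edgeR adjusted p = 2.1e-07) after a high of 21.5 CPM on D8. Nrxn3, a neurexin, held 36 counts on D15 and 1 on D5, a ratio of 43.8 with a counting interval of 7.375 to 1777. Of 15 posterior and presomitic mesoderm genes, a tissue that gives rise to vertebrae, only Lfng was tested, with 5.32, 1.35, 2.002, 2.675, 8.25 and 17.6 CPM over the 6 days. Lfng was higher for D15 against D5 (1.72 ± 0.28, edgeR adjusted p = 3.05e-06) and lower for D6 against D5 (-1.97 ± 0.40, edgeR adjusted p = 0.000251). The 14 untested genes had between 0 (Msgn1) and 108 (Fgf8) counts over all 18 libraries, and they went both ways. From D5 to D15, counts went from 52 to 23 for Fgf8, 23 to 1 for Dll3 and 14 to 0 for T. They went from 11 to 0 for Nkx1-2, 10 to 1 for Cdx2 and 2 to 1 for Cdx4. Higher counts were held by Tbx6 (6 to 11), Hes7 (0 to 7), Dll1 (17 to 19), Mesp2 (3 to 4) and Ripply2 (0 to 4). Msgn1, Cdx1 and Wnt3a held the same count on both days. Exons of 13 named related genes (Gatad2b, Lin28a, Pou5f1, Ntn3, Unc5c, Grid1, Nrxn3, Apc2, Axin2, Ncam1, Nrp1, Ank1 and Ank2) overlap another annotated gene.

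Markers of other cell types moved over the same days, and their part in the results was not tested. All 8 cardiac muscle markers were detected on each day, with a summed level of 3968 to 6677 CPM on D15 and 239 to 310.4 CPM on D5. All 7 fibroblast markers were detected too, at 25727 to 31758 CPM on D15 and 390.4 to 423 CPM on D5. The 14 neural markers summed to 262 to 289 CPM on D5 (Sox1 among those at 0), 71.3 to 88.7 CPM on D6 (Sox1, Sox3 and Neurog2 among those at 0) and 137 to 155 CPM on D15 (Sox1, Sox2, Sox3 and Neurog2 among those at 0), and Nes alone held 254, 67.9 and 131 CPM of these. The 6 pluripotent cell markers summed to 27.9 to 28.5 CPM on D5, 7.26 to 10.6 CPM on D8 and 17.4 to 20.003 CPM on D15, of which Klf4, not confined to stem cells, held 22.4, 6.32 and 16.3 CPM. Pou5f1 and Tdgf1 held 0.0533 and 0.391 CPM on D15 and 2.68 and 1.68 CPM on D5. Zfp42 held 0.171 CPM on D15 and 0.614 CPM on D5, and Nanog 0.395 and 0.608 CPM with 1.19 CPM on D10. Esrrb went the other way, with 0.968 CPM on D15 and 0.277 CPM on D5. Neural crest markers summed to 221 to 240.2 CPM on D15 (Sox10 and Foxd3 at 0) and 47.7 to 50.9 CPM on D5 (Foxd3 at 0), but Ets1, which other cell types express too, made up nearly all of it at 232 CPM on D15 and 48.8 CPM on D5, and the other 4 stayed under 1 CPM. The 6 endothelial markers summed to 297 to 449 CPM on D15 and 122 to 146 CPM on D5. Between these days they had 396 to 475 CPM on D6, 386 to 538 CPM on D7 and 247 to 289 CPM on D10.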

How the data were processed

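The authors deposited 1 table of raw counts per gene symbol, which entered here unchanged. Per the submitters' processing notes, reads were aligned with STAR to mm10. Per the labels' protocols, libraries were made with a TruSeq RNA v2 kit and called stranded. Versions, counter, annotation and strand setting are not given in the sources used here. Of 21 columns, 18 name a day of harvest of the samples and were placed in its group. The other 3 name an earlier day (D4), match no sample and were not used. The columns carry no replicate number.

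Counts were analysed with edgeR 4.0.16 (R 4.3.3): filterByExpr (minimum count 10) kept 13116 genes, TMM scaled libraries, and 1 robust quasi-likelihood fit covered 6 days with 12 residual degrees of freedom. P-values were adjusted over all genes tested, with 0.05 as the threshold. The script was tested on simulated data. A day with no count was set to 3 counts over the group as a floor, and days of 1 to 3 counts carry exact 95% intervals, which cover counting error only. Pairs of libraries of a day differed by more than sampling noise (chi-square over degrees of freedom 2.21 to 9.23).

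The 9 genes and all lists were chosen with earlier results of these data known. Related genes were named by rule: up to 4 per list with the smallest p among called genes, plus called genes against the majority direction. Nfasc, Chl1, Klf4, Igdcc4, Lin28b and Fam123a, the extremes of untested genes, and the let-7 search, were added after their values were seen. The same holds for the D5 and D15 counts of untested posterior mesoderm genes and for Cntn2, Nanog, Zfp42 and Esrrb. Like genes are the 3 with the highest r of log2 CPM (prior count 2) among genes with a mean of at least 2. Annotation is GENCODE M21 and RefSeq, where 20756 of 23337 symbols matched by current symbol. Alternatives were RLE and upper quartile factors, other filters, DESeq2 1.42.0, limma-voom (limma 3.58.1), the compared days alone, daily medians, 25% of D5 in place of 50%, and leaving out every single library.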

Additional observations from a re-analysis of the deposited data

How the results depend on the processing

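No paired analysis was possible because the columns carry no replicate number. Of 921 recomputed fold changes of the 9 genes, 5 had another sign, all near 0 and without 1 library: Sall2 D10 against D8 in 3 cases (down to -0.02) and Cbln1 D6 against D5 in 2 (up to 0.09). Further, 282 of 288 first harvests recomputed without 1 library were the same. With upper quartile factors L1cam was first below 10% on D10 in place of D8, and without 1 library the day lay between 8 and 10. At 25% of the D5 level in place of 50%, the first harvest was D8 for Fam123c, L1cam and Sall1 and D7 for Prtg and Sall3. With the compared days alone, 1 cerebellin relative was higher, and with no filter on low counts 2 posterior mesoderm genes were higher and 3 lower. With libraries left out in turn, the first harvest below 10% ranged from 8 to 10 for Sall3, and that below 50% from 6 to 7 for Fam123c and Sall3. The log2 fold change ranged from -0.46 to -0.064 for Cbln1 (D10 against D8), -7.03 to -6.25 for Sall1 (D15 against D5), -3.64 to -2.27 for Fam123c and -1.27 to -0.20 for Sall3 (D8 against D7). Lower posterior mesoderm genes ranged from 0 to 1 (1 without 1 D5 library), and higher related genes from 5 to 8 for D7 against D6 (5 without 1 D7 library) and 5 to 9 for D8 against D7 (5 without 1 D8 library), against 8 in both with all libraries. Of the 30 named related genes, 26 had a value and the same call in every alternative. Gatad2b lost its call without 1 library, Nrxn3 and Nrcam were not tested with the compared days alone, and Pou5f1 and Nrcam not with a filter of 1 CPM in 9 libraries. The causes were not tested. At these depths, a day with 0 counts in 3 libraries cannot be told from a level of up to 3 counts.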
